A study of Mus musculus with 6 samples.

Results

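The genes of the NF-κB subunits and of inhibitors that NF-κB itself induces were described in LSKs from irradiated Tespa1+/+ and Tespa1-/- mice. They were taken from the deposited gene table by gene name, 10 of its 55487 genes. The 5 subunit genes were Nfkb1, Nfkb2, Rel, Rela and Relb, and the 5 feedback inhibitor genes were Nfkbia, Nfkbie, Nfkbiz, Bcl3 and Tnfaip3. Each name matched 1 row, and all 10 passed the filter on low counts that left 15332 genes for testing.

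LSKs are bone marrow cells that lack lineage markers and carry Sca-1 and c-Kit, and the fraction holds the hematopoietic stem cells. RNA sequencing gave 3 libraries of Tespa1+/+ (wild-type, called littermates in the labels) and 3 of Tespa1-/- LSKs, and every mouse had been irradiated, so no unirradiated control stands beside them. Per the study's methods the Tespa1-/- line was B6.129S-Tespa1tm1Smoc, backcrossed to C57BL/6, and the mice were males of 8 to 10 weeks that received 5.0 Gy of total body irradiation and were examined at day 13. The sources do not say if each replicate came from a single mouse or from pooled mice, so p-values measure the spread between these libraries, which may be technical.

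Total counts ranged from 12856630 to 30576981 per library. Tespa1, the targeted gene, stood at 34.4 ± 1.62 CPM (CPM, the count scaled to a common library size; SD, n = 3) in Tespa1+/+ and 14.6 ± 0.634 CPM in Tespa1-/- LSKs, so its transcript was lower (log2 fold change -1.23, adjusted p = 7.00e-06) and not absent. Which part of the gene the allele removes is not given in the sources used here. Of the genes that define the sort, Kit (c-Kit) was at 333 ± 9.79 CPM against 170 ± 6.13 CPM and Ly6a (Sca-1) at 50.5 ± 11.6 against 40.4 ± 3.36 CPM. The 4 lineage markers of the sort (Cd3e, Itgam, Ly6g and Ptprc) summed to between 237 and 251 CPM against between 159 and 215 CPM. Itgam was at 30.3 ± 1.18 against 20.7 ± 9.14 CPM (adjusted p = 0.152). Ptprc was at 214 ± 7.02 against 171 ± 34.4 CPM (adjusted p = 0.0715). Cd3e and Ly6g had at most 8 counts in any library and were not tested. The 9 neutrophil markers had a summed level of 21.7 to 23.9 CPM in Tespa1+/+ libraries, which was 482 to 510 CPM in the Tespa1-/- ones, and 9 of 9 were called higher. Monocyte and macrophage markers summed to between 1005 and 1027 CPM against between 1088 and 1099 CPM, and B cell markers to between 50.1 and 55.0 against between 37.6 and 41.2 CPM, with Ms4a1 at the floor of 3 counts in every library. Plasma cell markers (142 to 165 against 226 to 234 CPM) and erythroid markers (28.6 to 29.5 against 47.9 to 50.9 CPM) had higher sums in Tespa1-/- libraries, and megakaryocyte (106 to 113 against 66.6 to 71.2 CPM), dendritic cell (366 to 373 against 278 to 282 CPM) and T and NK cell markers (4.38 to 6.17 against 2.64 to 3.24 CPM) had lower ones. Some sums hide mixed directions. Of the plasma cell markers 1 was called higher and 3 lower, and of the erythroid markers 3 higher and 2 lower. Of the monocyte and macrophage markers 1 was called higher and 3 lower. The B cell, megakaryocyte, dendritic cell, and T and NK cell lists had 4, 2, 4 and 2 called lower and 0 higher. At a fold below 1.5, however, Cd79b of the B cell list was higher (22.7 ± 1.11 against 27.3 ± 1.03 CPM, adjusted p = 0.00919). So was Bst2 of the dendritic cell list (adjusted p = 9.04e-05). In bulk RNA, fewer cells of a type and less RNA per cell cannot be told apart, and the part of these cell type differences in the results below was not tested. Fold changes also ran with gene length: over 10100 expressed genes, Spearman's rho between the log2 fold change and the length of the principal transcript was -0.66, a description across genes that share the same 6 libraries. Values with length taken as an offset are therefore given beside results that they alter. For the pathway lists the length of the principal transcript was used, an offset chosen after seeing the data. No other length offset is given for those lists.

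NF-κB is a dimer of Rel family proteins. Nfkb1 and Nfkb2 encode precursors, p105 and p100, whose processing yields p50 and p52, which bind DNA but lack a transactivation domain. Rela (p65), Rel (c-Rel) and Relb encode the subunits that carry this domain. In resting cells IκB proteins hold the dimers in the cytoplasm, and the IκB kinase complex, activated by cytokine, Toll-like and antigen receptors, marks them for degradation. The released dimers switch on genes for their own inhibitors, which closes a negative feedback loop. In the bone marrow the pathway is known for its roles in inflammatory responses, in cell survival after damage and in the maintenance of hematopoietic stem cells.

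The promoters of Rel and Nfkbie, the genes with the largest falls, and of Nfkbia and Bcl3, the genes that were higher, are shown for comparison. They are RefSeq sequences of the mouse build GRCm38.p6, limited to the bases before the transcription start that lie in no annotated exon, read from 5′ to 3′ on the strand of the gene. Capitals mark a match to GGG, any 3 bases and TTCC, a spelled form of the κB site, searched on both strands. The Rel sequence is chr11:23770971-23771219 on the minus strand, that of Nfkbie is chr17:45555450-45555699 on the plus strand, that of Nfkbia is chr12:55492648-55492897 on the minus strand and that of Bcl3 is chr7:19822771-19823005 on the minus strand.
Rel: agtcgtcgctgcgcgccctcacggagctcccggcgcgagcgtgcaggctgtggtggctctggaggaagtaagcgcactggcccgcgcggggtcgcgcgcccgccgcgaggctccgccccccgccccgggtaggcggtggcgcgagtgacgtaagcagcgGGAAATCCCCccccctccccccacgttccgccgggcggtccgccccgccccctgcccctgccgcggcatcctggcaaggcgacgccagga
Nfkbie: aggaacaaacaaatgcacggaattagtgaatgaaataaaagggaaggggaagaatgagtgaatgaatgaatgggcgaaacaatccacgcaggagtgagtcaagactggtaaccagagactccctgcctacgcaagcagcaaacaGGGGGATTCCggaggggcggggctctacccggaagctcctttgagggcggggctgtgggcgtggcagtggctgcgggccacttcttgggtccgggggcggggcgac
Nfkbia: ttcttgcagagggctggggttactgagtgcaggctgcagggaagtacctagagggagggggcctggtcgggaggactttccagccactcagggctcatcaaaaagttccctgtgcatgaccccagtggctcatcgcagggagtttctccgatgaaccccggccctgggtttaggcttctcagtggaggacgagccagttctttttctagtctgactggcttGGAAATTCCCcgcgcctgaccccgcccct
Bcl3: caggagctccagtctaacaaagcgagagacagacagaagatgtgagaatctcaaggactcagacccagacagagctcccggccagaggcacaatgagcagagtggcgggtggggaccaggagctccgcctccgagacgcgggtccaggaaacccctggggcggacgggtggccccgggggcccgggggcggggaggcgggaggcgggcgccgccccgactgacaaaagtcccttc

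RefSeq promoter windows of 250 bases before and 50 bases after a start were at hand for 7 of the 10 genes, in 10 windows, while Nfkb1, Relb and Nfkbiz had none. A match was present for 5 of the 7 (Nfkb2, Rel, Nfkbia, Nfkbie and Tnfaip3) and absent from these windows of Rela and Bcl3. Over all genes with a window, 6.31% held such a match (5.56% of 32851 windows). In Rel the match reads GGGGATTTCC on the strand opposite to the gene and begins 91 bases before the start. In Nfkbia it reads GGGAATTTCC, also on the opposite strand, 29 bases before the start, and in Nfkbie it reads GGGGGATTCC on the gene's own strand, 106 bases before the start. Tnfaip3 held GGGGATTTCC 12 bases before its upstream start and GGGTTATTCC 90 bases before a downstream start. A second spelling, GGGA, any 3 bases and TCC, was found for Nfkb2 and Nfkbia, against 5.21% of all genes. It can overlap the first spelling, and does so at the Nfkbia site and at GGGACATTCC and GGGACTTTCC of Nfkb2. Only GGGAGGGTCC of Nfkb2 matched the second spelling alone. The match was thus present at genes that were lower (Rel, Nfkbie) and at a gene that was higher (Nfkbia), and a match is a string of letters, not evidence of binding.

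Among the 10 genes, transcripts of 7 were lower and of 2 were higher in Tespa1-/- than in Tespa1+/+ LSKs, at an adjusted p below 0.05. Lower were Rel, Nfkbie, Nfkbiz, Tnfaip3, Nfkb2, Nfkb1 and Rela, higher were Bcl3 and Nfkbia, and Relb did not pass the test. Of all 15332 genes tested, 31.8% were lower and 31.5% were higher at that threshold. With a fold above 1.5 also required, which is what "called" means here, 4 of the 10 were called lower (Rel, Nfkbie, Nfkbiz and Tnfaip3) and 0 higher, against 19.2% and 14.0% of all genes. The 2 groups of libraries did not overlap for any of the 10, with 8 lower and 2 higher, against 34.6% and 34.5% of all genes. The plot of levels by library shows each of these values.

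**Figure D1:**
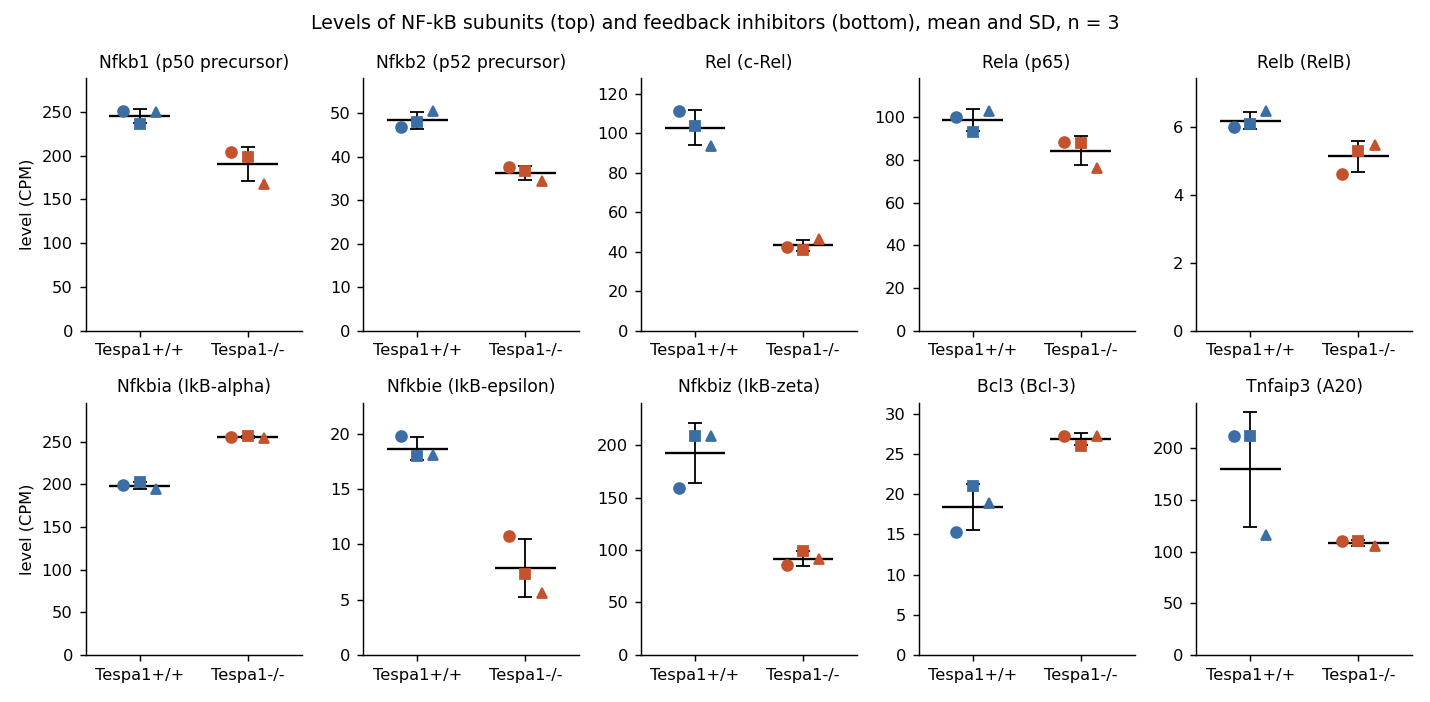
Level of each of the 10 genes in CPM (vertical axes, each from 0) in the 3 Tespa1+/+ (blue) and 3 Tespa1-/- (orange) libraries, subunits above and feedback inhibitors below. Circles, squares and triangles are replicates 1, 2 and 3, and horizontal lines with bars are the mean and SD. Rel, Nfkbie and Nfkbiz show wide gaps between the groups, Nfkbia and Bcl3 are higher in Tespa1-/-, and the Tnfaip3 level of Tespa1+/+ replicate 3 (115.7 CPM) lies beside the Tespa1-/- libraries.

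Rel (chromosome 11, 23736847 to 23770970, minus strand, GRCm38) encodes c-Rel, the subunit tied above all to lymphocyte activation. It had the largest change among the subunits. Its level was 111, 103.8 and 93.4 CPM in the Tespa1+/+ libraries and 42.4, 40.9 and 46.2 CPM in the Tespa1-/- libraries. The lowest Tespa1+/+ library therefore stood far above the highest Tespa1-/- library. The group means were 102.7 ± 8.89 and 43.2 ± 2.72 CPM (SD, n = 3 each), a log2 fold change of -1.25 (SE 0.08, 95% interval -1.43 to -1.07, adjusted p = 1.08e-05). Rel has a long transcript of 7466 bases, and with the principal transcript length as an offset the log2 fold change shrank to -0.63 (adjusted p = 3.99e-04). It was -0.93 with the union of exons and -1.14 with the length implied by the FPKM.

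Rela (chromosome 19, 5637483 to 5648130, plus strand) encodes p65, the main transactivating partner of p50. Its level was 100.3, 93.1 and 102.8 CPM in Tespa1+/+ and 88.2, 88.2 and 76.4 CPM in Tespa1-/- libraries. The groups lay close together without overlap, at a log2 fold change of -0.23 (SE 0.07, 95% interval -0.39 to -0.07, adjusted p = 0.0221). It no longer passed the test without Tespa1+/+ replicate 1 (adjusted p = 0.0546), without Tespa1+/+ replicate 3 (adjusted p = 0.077) and without Tespa1-/- replicate 3 (adjusted p = 0.0543).

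Relb (chromosome 7, 19606217 to 19629438, minus strand) encodes the partner of p52 in the alternative branch of the pathway. It was the subunit with the lowest level, at 6.001, 6.11 and 6.48 CPM in Tespa1+/+ and 4.64, 5.30 and 5.48 CPM in Tespa1-/- libraries, from 68 to 193 counts. Its log2 fold change was -0.27 (SE 0.11, 95% interval -0.53 to -0.02) and did not pass the adjusted test (adjusted p = 0.0612). The result depended on the fit, from an adjusted p of 0.0195 on unscaled total counts to 0.318 with DESeq2, with 0.0286 for the principal transcript length offset, and every fit gave a lower level.

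Nfkb1 (chromosome 3, 135584655 to 135691547, minus strand) and Nfkb2 (chromosome 19, 46304320 to 46312385, plus strand) encode the p105 and p100 precursors. Nfkb1 was at 250.6, 236.6 and 249.9 CPM in Tespa1+/+ and at 204.6, 198.9 and 167.7 CPM in Tespa1-/- libraries. Its log2 fold change was -0.37 (SE 0.07, 95% interval -0.54 to -0.19, adjusted p = 0.00373). With gene length as an offset Nfkb1 no longer passed the test, and its direction depended on the length used: the log2 fold change was -0.11 with the principal transcript (adjusted p = 0.233), 0.12 with the length that follows from dividing the CPM by the FPKM (adjusted p = 0.209) and 0.19 with the union of its exons (adjusted p = 0.0661). These lengths are 4117, 16227 and 12061 bases. Nfkb2 was at 46.7, 47.98 and 50.5 CPM in Tespa1+/+ and at 37.6, 36.65 and 34.5 CPM in Tespa1-/- libraries, a log2 fold change of -0.42 (SE 0.06, adjusted p = 5.32e-04). Unlike Nfkb1 it stayed past the threshold under each of the 17 alternative settings, with log2 fold changes from -0.52 to -0.32. Opposite-strand genes share 18.1% of its exon bases, and since it is not stated whether counting used the strand, part of its reads could belong to them.

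**Figure D2:**
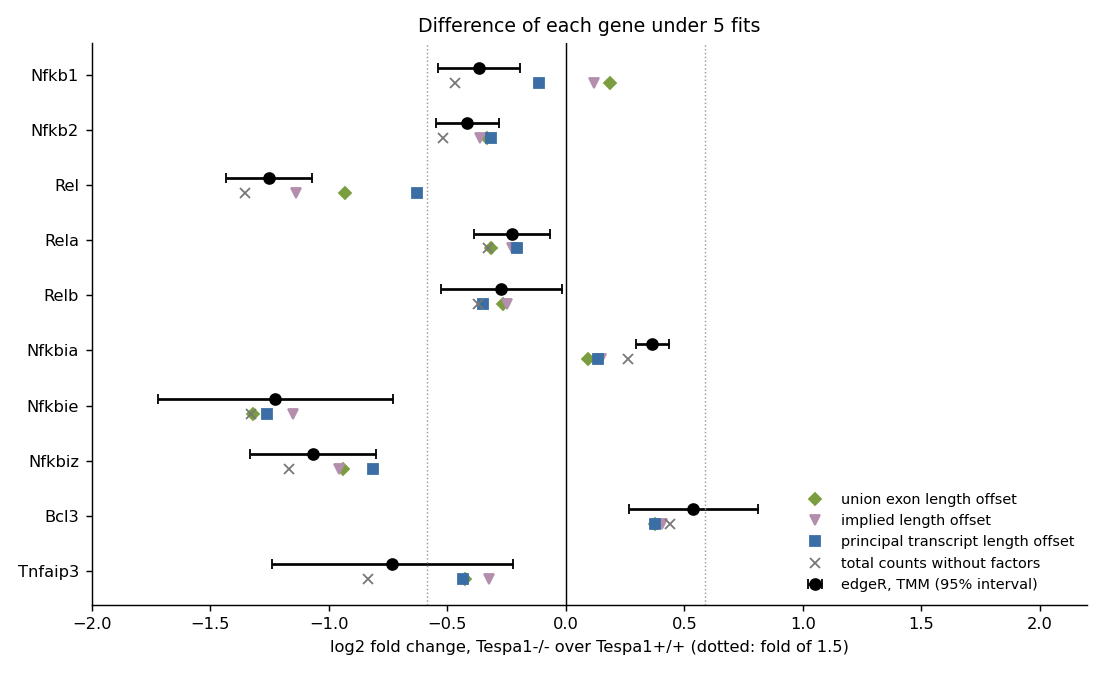
Log2 fold change of each gene, Tespa1-/- over Tespa1+/+ (horizontal axis), with its 95% interval in the edgeR fit (black) and as the estimate alone under 3 gene length offsets and with unscaled total counts (other symbols). Dotted lines mark a fold of 1.5. Nfkb1 crosses 0 with 2 of the length offsets, and Rel moves from -1.25 to -0.63 with the principal transcript. Rel, Nfkbie and Nfkbiz stay beyond the fold of 1.5 in each fit shown.

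The 5 genes grouped here as feedback inhibitors split in direction. Whether their proteins repressed or activated target genes in these cells was not tested. Nfkbia (chromosome 12, 55489410 to 55492647, minus strand) encodes IκBα, the inhibitor that is made anew soon after NF-κB activation and returns the dimers to the cytoplasm. Its level was 199.0, 202.7 and 193.9 CPM in Tespa1+/+ and 255.6, 256.9 and 254.4 CPM in Tespa1-/- libraries. The Tespa1-/- libraries were nearly equal, and the gap between the groups was far wider than the spread within either. The log2 fold change was 0.36 (SE 0.03, 95% interval 0.30 to 0.43, adjusted p = 3.72e-05), a rise of 28.8%. Nfkbia has the shortest principal transcript of the 10 genes (1578 bases), and its log2 fold change was 0.14 with the principal transcript length as offset (adjusted p = 0.00781) and 0.09 with the union exon length (adjusted p = 0.0322).

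Nfkbie (chromosome 17, 45555703 to 45563169, plus strand) encodes IκBε, a second cytoplasmic inhibitor induced by NF-κB. In contrast to Nfkbia it fell, from 19.8, 18.0 and 18.1 CPM in Tespa1+/+ to 10.7, 7.30 and 5.56 CPM in Tespa1-/- libraries. The Tespa1-/- libraries varied widely (7.87 ± 2.64 CPM, SD, n = 3, from 69 to 183 counts), yet the highest of them was below every Tespa1+/+ library. The log2 fold change was -1.23 (SE 0.21, 95% interval -1.72 to -0.73, adjusted p = 0.00171). It lay between -1.32 and -1.15 with the 3 length offsets.

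Nfkbiz (chromosome 16, 55811375 to 55838899, minus strand) encodes IκBζ, a nuclear IκB protein that acts on secondary response genes. It stood at 159.0, 209.0 and 208.2 CPM in Tespa1+/+ and at 85.3, 99.0 and 91.05 CPM in Tespa1-/- libraries. Replicate 1 was the lowest of the Tespa1+/+ libraries and still well above the other group. The log2 fold change was -1.07 (SE 0.11, 95% interval -1.33 to -0.80, adjusted p = 1.49e-04), and from -0.96 to -0.81 with length offsets.

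Bcl3 (chromosome 7, 19808462 to 19822770, minus strand) encodes another nuclear IκB protein, which binds p50 and p52 dimers. It moved the other way, from 15.4, 21.03 and 18.9 CPM in Tespa1+/+ to 27.3, 26.0 and 27.3 CPM in Tespa1-/- libraries. The groups did not overlap, and the spread was mostly among the Tespa1+/+ libraries. Its log2 fold change was 0.54 (SE 0.11, 95% interval 0.27 to 0.81, adjusted p = 0.0049), a fold of 1.45 that stayed under the fold threshold. Without Tespa1+/+ replicate 2 it was 0.66 and passed that threshold too. An opposite-strand gene shares 6.5% of the Bcl3 exon bases.

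Tnfaip3 (chromosome 10, 19000910 to 19015657, minus strand) encodes A20, a ubiquitin-editing enzyme that stops signalling upstream of the IκB kinases. Its level was 211.9, 212.2 and 115.7 CPM in Tespa1+/+ and 110.1, 110.5 and 105.0 CPM in Tespa1-/- libraries. Tespa1+/+ replicate 3 was thus close to the Tespa1-/- libraries, which differed little among themselves. The log2 fold change was -0.73 (SE 0.21, 95% interval -1.24 to -0.22, adjusted p = 0.0201). Without Tespa1+/+ replicate 3 it was -0.96 (adjusted p = 2.58e-05), whereas leaving out any of the other 5 libraries gave an adjusted p between 0.0516 and 0.0695. With the length offsets the log2 fold change lay between -0.43 and -0.32, and the adjusted p between 0.128 and 0.231. Such a departure was set against all genes: 8696 had the other Tespa1+/+ libraries within 0.25 of each other on the log2 scale, and of these 35 were lower and 32 were higher by over 0.7 in replicate 3. In the other 5 libraries the same count gave from 34 to 64 genes lower and from 23 to 41 genes higher, and Tnfaip3 in Tespa1+/+ replicate 3 was the only case among the 10 genes.

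Counts of 2 genes set against each other within a library do not depend on library scaling. For every 100 Rela counts there were 110.8, 111.5 and 90.8 Rel counts in Tespa1+/+ and 48.1, 46.4 and 60.5 in Tespa1-/- libraries. Every Tespa1-/- library thus had fewer Rel counts per Rela count than any Tespa1+/+ library. Per length, Rela stood above Rel in every library of both groups. The counts of Nfkbia per 100 Rela counts were 198.5, 217.7 and 188.6 in Tespa1+/+ against 289.9, 291.4 and 333.2 in Tespa1-/- libraries. For the pair of cytoplasmic inhibitors, Nfkbie counts per 100 Nfkbia counts were 9.96, 8.87 and 9.32 against 4.20, 2.84 and 2.19. Of the nuclear IκB genes, there were 1035, 994 and 1103 Nfkbiz counts per 100 Bcl3 counts in Tespa1+/+ and 312, 381 and 334 in Tespa1-/- libraries. No ratio overlapped between the groups. Neither gene of any pair did so on its own, as for 69.1% of all genes tested, and a background for ratios was not computed. The genes of each pair differ in length, so the trend with length is not removed from these ratios.

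Levels of different genes were compared per length, as FPKM (CPM divided by gene length in kilobases). On the deposited FPKM, Tespa1+/+ LSKs held most Nfkbia (103.7 ± 2.30, SD, n = 3), then Nfkbiz (27.0), Rela (18.1), Nfkb1 (15.7), Rel (14.2), Tnfaip3 (13.3), Nfkb2 (7.80), Bcl3 (5.52), Nfkbie (2.83) and Relb (1.07). The libraries of Nfkb1 and Rel overlapped in this order, as did those of Rel and Tnfaip3, and the other neighbours were apart. In Tespa1-/- LSKs the order was Nfkbia (124.6), Rela (14.4), Nfkbiz (12.04), Nfkb1 (11.3), Bcl3 (7.504), Tnfaip3 (7.500), Rel (5.58), Nfkb2 (5.45), Nfkbie (1.11) and Relb (0.830). Here the neighbours Nfkbiz and Nfkb1, Bcl3 and Tnfaip3, Rel and Nfkb2, and Nfkbie and Relb overlapped. Rel thus stood level with Nfkb2 on this scale in Tespa1-/- LSKs and above it in Tespa1+/+ LSKs. The deposited FPKM of a library sum to between 350333 and 351987 in Tespa1+/+ and to between 432222 and 433536 in Tespa1-/-, so these values serve here to rank genes within a group.

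The order depends on the length that is used. When FPKM were recomputed on the principal transcript, Nfkb1 rose to the second place of the order in Tespa1+/+ (61.7 ± 2.05) and in Tespa1-/- LSKs (44.6 ± 4.64), behind Nfkbia at 130.1 ± 2.89 and 156.3 ± 0.894. Rela was then at 37.6 and 29.9 FPKM, and Relb stayed last at 2.90 and 2.25 FPKM. Unlike on the deposited FPKM, Nfkb2 here stood above Rel in both groups, without overlap. Their means were 15.9 and 14.2 FPKM in Tespa1+/+ and 11.1 and 5.58 FPKM in Tespa1-/- LSKs. In Tespa1+/+ the libraries nearly met, with the lowest Nfkb2 value at 15.407 and the highest Rel value at 15.400 FPKM. Of the summed level of the 5 subunits on this scale, Rel made up 11.4%, 11.2% and 9.61% in Tespa1+/+ against 5.58%, 5.46% and 6.99% in Tespa1-/- libraries. Nfkb1 held between 46.5% and 46.7% of that sum in Tespa1+/+ and between 46.0% and 48.8% in Tespa1-/- libraries, and Rela between 27.7% and 29.1% against between 31.8% and 32.4%. Rela and Rel shares did not overlap between the groups, and Nfkb1, Nfkb2 and Relb shares did. A background for such shares was not computed.

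**Figure D3:**
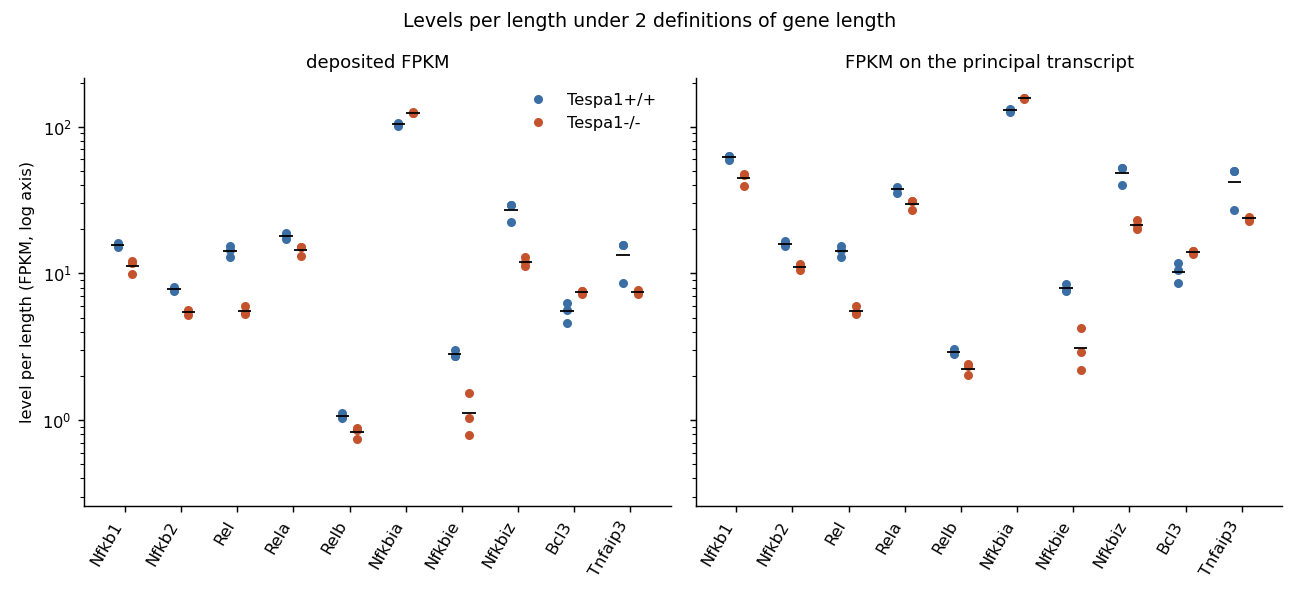
Level per length of the 10 genes in FPKM (log axis) as deposited (left) and recomputed on the principal transcript (right). Points are the 3 Tespa1+/+ (blue) and 3 Tespa1-/- (orange) libraries and black bars their means. Nfkbia is the most abundant of the set on both scales and Relb the least, and Nfkb1 moves from 15.7 to 61.7 FPKM in Tespa1+/+ with the change of length.

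The rest of the pathway was described through 95 genes in 5 lists, of which 92 were tested. Over these, 22 were called lower and 6 higher, 23.9% and 6.52% of those tested beside 19.2% and 14.0% of all genes, and the median log2 fold change was -0.19, beside -0.00034 over all genes tested. The subunits had a median log2 fold change of -0.37 and the feedback inhibitors of -0.73. Each of these is the middle value of only 5 genes, that of Nfkb1 for the subunits and of Tnfaip3 for the feedback inhibitors. Both values depended on the fit, as given above. With the principal transcript length as offset 17 of the 92 genes were called lower and 6 higher, against 2188 and 1142 of 15320 genes in that fit. These counts over all genes are also the background for the counts with the length offset in each list below. The medians were then -0.05 over the 92 genes, 0.02 over all genes, -0.32 over the subunits and -0.43 over the feedback inhibitors.

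Upstream of the 10 genes, receptors had 3 of 14 tested genes called lower (21.4%) and 1 higher (7.14%), near or below the shares of 19.2% and 14.0% over all genes, and 2 and 0 with the length offset. Tlr9, an endosomal DNA sensor, was at 3.58 ± 0.606 and 1.02 ± 0.231 CPM (log2 fold change -1.76, adjusted p = 3.55e-04), and Tnfrsf13c, the BAFF receptor of B cells, at 2.91 ± 0.601 and 1.12 ± 0.310 CPM (log2 fold change -1.42, adjusted p = 0.0026). Cd14, the coreceptor for lipopolysaccharide on myeloid cells, went from 46.1 ± 2.16 to 73.7 ± 4.51 CPM (log2 fold change 0.68, adjusted p = 6.63e-05), and with the length offset its log2 fold change of 0.46 was under the fold threshold. Cd40 was near the detection limit at 0.387 and 0.303 CPM and was not tested. Of the 25 adaptors and upstream kinases, 4 were called lower (16.0%) and 2 higher (8.0%), both shares below those of all genes, and 1 and 2 with the length offset. Myd88, the adaptor of Toll-like and interleukin-1 receptors, rose from 54.0 ± 4.91 to 112 ± 3.34 CPM (log2 fold change 1.06, adjusted p = 1.53e-05), and Card9, an adaptor of myeloid cells, from 117 ± 2.74 to 213 ± 3.66 CPM (log2 fold change 0.86, adjusted p = 1.97e-06). Map3k14 (NIK), the kinase of the alternative branch, fell with a log2 fold change of -0.62 (adjusted p = 6.48e-04), which was -0.35 with the length offset (adjusted p = 0.0138), a fold under 1.5. The ubiquitin ligase genes Traf3 and Traf6 fell with log2 fold changes of -0.80 and -0.55 (adjusted p = 0.0031 and 2.91e-05), and with the length offset these were -0.22 and -0.04 (adjusted p = 0.293 and 0.476). Opposite-strand exons share 11.3% of the Myd88 exon bases.

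The IκB kinase complex lies between these inputs and the inhibitors. Its catalytic subunits Chuk (IKKα) and Ikbkb (IKKβ) had log2 fold changes of -0.23 (adjusted p = 0.0151) and -0.30 (adjusted p = 4.34e-04), and its regulatory subunit Ikbkg (NEMO) of -0.62 (adjusted p = 0.00105). Ikbkg was the 1 gene called lower of the 6 kinases and related genes (16.7%, beside 19.2% of all genes), and 0 were called higher. With the length offset the log2 fold change of Ikbkg was -0.05 (adjusted p = 0.655) and that of Chuk -0.07 (adjusted p = 0.398), while Ikbkb was at -0.13 (adjusted p = 0.028), and 0 of the 6 were called.

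Inhibitors outside the set of 10 went in both directions as well, with 3 of 12 called lower (25.0%, beside 19.2% of all genes) and 2 higher (16.7%, beside 14.0%), and 2 and 1 with the length offset. Nfkbib, which encodes IκBβ, the third cytoplasmic inhibitor, rose from 39.6 ± 2.12 to 57.4 ± 3.97 CPM (log2 fold change 0.53, adjusted p = 3.93e-04), and opposite-strand genes share 16.4% of its exon bases. Nfkbid, which encodes the nuclear IκBNS, fell from 87.9 ± 3.20 to 48.2 ± 1.62 CPM (log2 fold change -0.87, adjusted p = 6.72e-06). Among IκB genes, Nfkbia, Nfkbib and Bcl3 were thus higher and Nfkbie, Nfkbiz and Nfkbid lower, with the same directions in the fit with the principal transcript length as offset. Zc3h12a (Regnase-1), an RNase that degrades inflammatory transcripts, fell with a log2 fold change of -1.16 (adjusted p = 5.23e-05), and Tnip3, a binding partner of A20, with -1.25 (adjusted p = 0.0323) at only 1.49 and 0.589 CPM (adjusted p = 0.0685 with the length offset). Otulin, which removes linear ubiquitin chains, and Commd1 rose with log2 fold changes of 0.66 and 0.62 (adjusted p = 3.90e-04 and 5.61e-05), and with the length offset these were 0.41, under the fold threshold, and 0.93. Other genes share 11.9% of the Commd1 exon bases. Cyld, another deubiquitinase of the pathway, fell with a log2 fold change of -0.45 (adjusted p = 1.28e-04), and with the length offset it was higher, at 0.21 (adjusted p = 0.00885).

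Downstream, 11 of 35 tested target genes were called lower (31.4%, beside 19.2% of all genes) and 1 higher (2.86%, beside 14.0%), and the median log2 fold change was -0.31. With the length offset 12 were called lower and 3 higher, against 2188 and 1142 of 15320 genes. The median was then -0.40, beside 0.02 over all genes. Tnf fell from 28.2 ± 2.23 to 14.8 ± 0.712 CPM (log2 fold change -0.93, adjusted p = 6.40e-05), and Ccnd1, which encodes cyclin D1, from 72.6 ± 2.88 to 36.5 ± 3.40 CPM (log2 fold change -0.99, adjusted p = 2.68e-05). A gene on the opposite strand shares 23.4% of the Ccnd1 exon bases. Il1b was at 1.91 ± 0.429 and 1.801 ± 0.350 CPM (adjusted p = 0.702) and Bcl2l1, which encodes Bcl-xL, at 15.1 ± 4.06 and 18.0 ± 5.85 CPM (adjusted p = 0.422). Mmp9, a gelatinase of neutrophils and macrophages, was the gene called higher, at between 2 and 5 counts in Tespa1+/+ and between 69 and 109 counts in Tespa1-/- libraries. The neutrophil markers described above moved in the same libraries, and their part in the Mmp9 result was not tested.

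**Figure D4:**
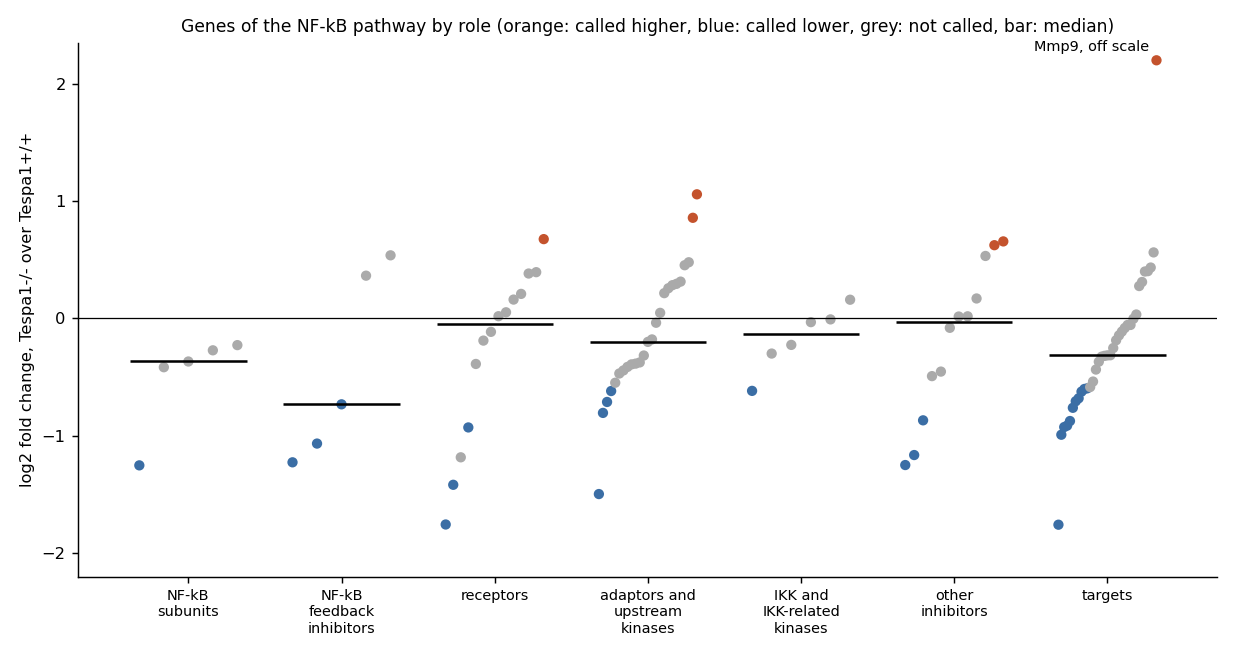
Log2 fold change, Tespa1-/- over Tespa1+/+ (vertical axis), of each tested gene of the 2 lists described here and of the 5 further lists of the pathway, sorted within each list. Orange points were called higher, blue points called lower and grey points were not called, and bars are list medians. Mmp9 lies beyond the axis and is drawn at its edge. The medians of the subunits (-0.37), feedback inhibitors (-0.73) and targets (-0.31) lie lowest, and those of the subunits and feedback inhibitors rest on 5 genes each.

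The genes whose pattern over the 6 libraries was most like that of Rel, Nfkbie and Nfkbiz were found by the root mean square difference of their log2 levels, each centred on its own mean, among 9660 genes with a mean of at least 10 CPM. For Rel these were Inpp5f (0.06), Mx1 (0.06) and Birc6 (0.06), with log2 fold changes from -1.34 to -1.19. For Nfkbiz they were Ece1 (0.08), Ahctf1 (0.09) and Rab11fip5 (0.09). The nearest patterns to Nfkbie were less close, at 0.14 for Kdm2a, 0.14 for Ncoa1 and 0.16 for Eya3. None of the 9 was a gene of the NF-κB lists, and 0 genes were shared between the 3 sets. Only 3 genes were taken per member, and the lists are a small part of the 9660 genes. Neither count is therefore a result about the pathway.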

How the data were processed

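RNA sequencing of LSKs was compared between 3 Tespa1+/+ and 3 Tespa1-/- libraries, grouped by the titles of the labels. Per the labels, poly-A RNA went into a stranded library kit, and paired ends were read on a NovaSeq instrument. The submitters' processing notes name CASAVA 1.8, HISAT2, StringTie, edgeR and the build GRCm38, with no role or setting. The authors deposited raw counts and FPKM for 55487 genes, of which 55227 were found in GENCODE M21 and 54907 had the same coordinates there. The deposited FPKM equal the CPM of the unscaled total divided by a fixed length per gene, which varied by at most 0.0716% between libraries.

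Counts were tested in edgeR 4.0.16 (R 4.3.3) with its filter by expression, TMM factors and the quasi-likelihood F-test, and p-values were adjusted by Benjamini-Hochberg over 15332 genes. A call needed an adjusted p under 0.05 and a fold above 1.5, the fold cutoff of the study's methods. The common biological coefficient of variation was 0.11. A floor of 3 counts (from 0.0981 to 0.233 CPM) and all p-values cover counting error and the spread between libraries only. Offsets for gene length came from a loess fit (span 0.5) of each library on log2 length. FPKM alternatives used limma 3.58.1 on log2(FPKM + 1) and log2(FPKM + 0.1), which understate the change of low genes, with genes at 1 FPKM or more in 3 libraries, and DESeq2 1.42.0 was a further alternative. The fit was tested on simulated data. Genes named in the text were all 10 members, the targeted and sorting genes, 12 listed pathway genes, in each pathway list up to 2 called genes with the largest rises and falls at a mean of at least 1 CPM, and 3 genes nearest in pattern to each of the 3 members with the largest changes. The members, lists and rules were chosen with earlier results of these data known. 1 gene that this rule names is not reported here. A planned search of protein sequences was not run.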

Additional observations from a re-analysis of the deposited data

How the results depend on the processing

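Under 17 alternative settings, Nfkb2 (log2 fold change from -0.52 to -0.32), Rel (from -1.35 to -0.63), Nfkbie (from -1.52 to -0.87), Nfkbiz (from -1.18 to -0.81), Nfkbia (from 0.09 to 0.39) and Bcl3 (from 0.38 to 0.66) kept their direction and an adjusted p under 0.05. Nfkb1 changed direction with the union exon (0.19) and implied (0.12) length offsets and was at -0.11 with the principal transcript, an offset chosen after seeing the data. Relb passed the test with unscaled total counts (-0.37), with at least 10 counts in every library (-0.30), with the principal transcript (-0.35) and in limma on log2(FPKM + 1) (-0.18) and log2(FPKM + 0.1) (-0.34). With the union exon, implied and principal transcript offsets, 1253, 1402 and 1142 genes were called higher, and 1070 and 1365 in limma with pseudocounts of 1 and 0.1, where 1626 were called lower with the pseudocount of 1. Each length offset left 3 of the 10 members called. With unscaled total counts the median gene stood at -0.10 on the log2 scale, and 1491 genes were called higher and 3516 lower, in place of 2148 and 2951. Leaving out 1 library gave from 2078 to 2246 genes higher and from 2716 to 2885 lower, and from 3 to 4 members called. Where this left a group with 2 libraries, the spread was still pooled over the groups. The cause of these changes was not tested.

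Same-numbered libraries did not deviate together (correlations of 0.0459, 0.0107 and 0.0595), so the numbers were not taken to pair them. With a replicate block 2101 genes were called higher and 2871 lower, and no member's call changed. Depth limits Relb and Nfkbie most, with as few as 68 and 69 counts in a library.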
